A study of Mus musculus with 2 samples.

Results

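Reelin is a large glycoprotein that cells secrete to guide the placement of migrating neurons. It binds the lipoprotein receptors VLDLR and ApoER2 on the receiving cell, the adaptor DAB1 is then phosphorylated by Src family kinases such as FYN, and phosphorylated DAB1 recruits CRK and CRKL on the way to the cytoskeleton and to cell adhesion. In the developing cerebellum, granule neurons and their progenitors are a known source of Reelin, and Purkinje cells, which settle in a single layer beneath them, are a known target. The 7 genes of this route (Reln, Vldlr, Lrp8, Dab1, Fyn, Crk and Crkl, where Lrp8 encodes ApoER2) were taken by symbol from the 32285 genes counted. All 7 had UMIs, which are unique molecular identifiers that each stand for 1 captured transcript, in both libraries.

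Nuclei of the mouse cerebellum at postnatal day 1 were profiled one by one, from mice without Cre and from mice in which Tox3 was targeted with Nestin-cre, a driver active in neural precursors and passed on to their progeny. The control mice are labelled Tox3f/f in one field and Tox3f/f or Tox3f/+ in another, and the conditional knockout (cKO) mice are labelled Nestin-cre;Tox3f/f, so every animal carried at least 1 floxed Tox3 allele. Both groups were pools of 12 cerebella, sequenced as 1 library apiece, so a difference between libraries has no replicate check, and genotype, pool and library cannot be told apart. Tox3 stood at 104 counts per 1000000 UMIs (CPM) in control (99.4 to 108) and at 118 (115 to 122) in the library labelled cKO. It was thus not lower there, and counts per gene do not show whether the floxed segment was transcribed, so they did not check the genotype. Nuclei from that library are called cKO-labelled.

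After filtering, 4667 control and 6555 cKO-labelled nuclei were kept, with medians of 3978 and 4025 UMIs per nucleus, and 9 of 11803 barcodes were found in both libraries before filtering. Clustering left out the 7 members and 37 further genes of the pathway, and clusters were named by marker genes ("GN-like" and so on). A level is the UMIs of a gene per 1000000 UMIs of a class (CPM), with an exact 95% interval in parentheses that covers counting error only. Levels are compared between classes within a gene and never between genes. The granule neuron progenitor (GNP)-like class had 518 control and 121 cKO-labelled nuclei, the granule neuron (GN)-like class 1115 and 1414, and the Purkinje cell-like class 292 and 719. Both granule classes together are called the granule lineage. At least 50 nuclei in each library were also found in 5 other classes described here, namely glutamatergic cerebellar nuclei neuron (CN)-like, GABAergic interneuron-like, Bergmann glia-like, oligodendrocyte lineage-like and microglia-like nuclei. Cluster 2, with 408 and 497 nuclei, carried GN markers but had Slc17a6 among its leading genes, so it stayed unnamed and is given by number. Cluster 10, with 105 and 305 nuclei, stayed unnamed because its leading genes included those of Bergmann glia. Clusters 1 and 5 stayed unnamed for low depth, with 991 and 42 nuclei in the former and 25 and 652 in the latter.

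Reln (ENSMUSG00000042453) lies on chromosome 5 at 21884454 to 22344702 on the minus strand of GRCm38, and Dab1 (ENSMUSG00000028519) on chromosome 4 at 103619359 to 104744844 on the plus strand. Vldlr (ENSMUSG00000024924) lies on chromosome 19 at 27216484 to 27254231 and Lrp8 (ENSMUSG00000028613) on chromosome 4 at 107802261 to 107876840. Fyn (ENSMUSG00000019843) is on chromosome 10 at 39368855 to 39565381, Crk (ENSMUSG00000017776) on chromosome 11 at 75679259 to 75706908 and Crkl (ENSMUSG00000006134) on chromosome 16 at 17451987 to 17487434, all on the plus strand. No other counted gene overlapped a member on its own strand.

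The start regions of the ligand and the adaptor are shown because their transcripts were highest in opposite cell types, the sending and the receiving one. Each runs from 250 bases before to 50 bases after a transcription start in RefSeq (GRCm38.p6), 5′ to 3′ on the strand of the gene, and capitals mark the E-box letters CANNTG, the core that basic helix-loop-helix factors can read. This pattern is its own reverse complement, so 1 strand covers both. Reln had 1 listed start and Dab1 had 2, which lie far apart in the same gene. The Reln region is chr5:22344656-22344955 on the minus strand, and the Dab1 regions are chr4:103619250-103619549 and chr4:104367288-104367587 on the plus strand.
Reln: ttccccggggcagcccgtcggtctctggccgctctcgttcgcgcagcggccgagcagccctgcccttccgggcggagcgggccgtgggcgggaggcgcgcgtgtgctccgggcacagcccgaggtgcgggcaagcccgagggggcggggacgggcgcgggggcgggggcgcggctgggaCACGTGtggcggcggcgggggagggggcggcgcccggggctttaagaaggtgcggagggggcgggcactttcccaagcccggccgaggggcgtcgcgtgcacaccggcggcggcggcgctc
Dab1, first start: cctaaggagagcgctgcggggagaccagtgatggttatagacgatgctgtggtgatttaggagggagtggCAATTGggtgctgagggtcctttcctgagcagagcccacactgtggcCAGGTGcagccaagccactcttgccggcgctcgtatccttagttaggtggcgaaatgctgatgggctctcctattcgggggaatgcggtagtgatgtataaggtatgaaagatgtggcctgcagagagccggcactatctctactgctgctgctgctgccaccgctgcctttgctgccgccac
Dab1, second start: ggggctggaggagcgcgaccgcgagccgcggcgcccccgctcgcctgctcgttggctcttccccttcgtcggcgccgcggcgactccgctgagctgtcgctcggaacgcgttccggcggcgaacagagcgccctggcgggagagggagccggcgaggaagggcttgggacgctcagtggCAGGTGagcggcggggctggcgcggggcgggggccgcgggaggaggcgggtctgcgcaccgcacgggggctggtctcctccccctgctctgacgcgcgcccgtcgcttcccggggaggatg
The Reln region held 1 match, CACGTG, 71 bases before the start, and was 80.7% G and C. The first Dab1 region held CAATTG and CAGGTG at 180 and 133 bases before the start, and the second held CAGGTG at 71 bases before it. Of all 32851 start regions in the same table, 72.3% held at least 1 such match and 39.6% held at least 2. A match is a description of letters and not of a bound site.

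Reln, the ligand, was a transcript of the granule lineage in both libraries. In control it stood at 3008 CPM (2963 to 3053) in GN-like nuclei and at 1717 (1660 to 1774) in GNP-like nuclei. In cKO-labelled nuclei the same classes stood at 2823 (2780 to 2866) and 2191 (2055 to 2334). A Reln UMI was found in 98.5% of control and 99.0% of cKO-labelled GN-like nuclei, and in 96.5% and 98.3% of GNP-like nuclei. No other class described here passed 213 CPM, the control level of glutamatergic CN-like nuclei. That class was uneven, since its cluster 21 stood at 532 CPM (426 to 657) and 522 (449 to 603) and its cluster 17 at 151 (126 to 179.8) and 121 (108 to 136). A Reln UMI was found in 45.7% and 53.4% of cluster 21 nuclei. Of its Reln UMIs, 5 nuclei held 57.0% in control and 5 held 31.7% in the library labelled cKO. The control levels of the neighbours in order from GABAergic interneuron-like (176 CPM) through Purkinje cell-like (165) and Bergmann glia-like (156) to microglia-like nuclei (139) did not differ beyond counting error.

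Microglia are not known as a source of Reelin, and their Reln level is given as the background of free RNA in the droplets. Microglia-like nuclei held 24 Reln UMIs in control, or 139 CPM (89.0 to 207), and 26 in the library labelled cKO, or 60 CPM (39.2 to 87.9). A Reln UMI was seen in 30.2% and 16.6% of them, at median depths of 2923 and 2546 UMIs. The Reln level of the granule lineage was 19.2 (12.9 to 29.9) times that of microglia-like nuclei in control and 46.4 (31.6 to 71.0) times in the library labelled cKO. In cKO-labelled nuclei Bergmann glia-like Reln (97.2 CPM) lay above the microglia-like level beyond counting error, and oligodendrocyte lineage-like (49.2) and Purkinje cell-like Reln (47.0) did not lie above it.

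**Figure D1:**
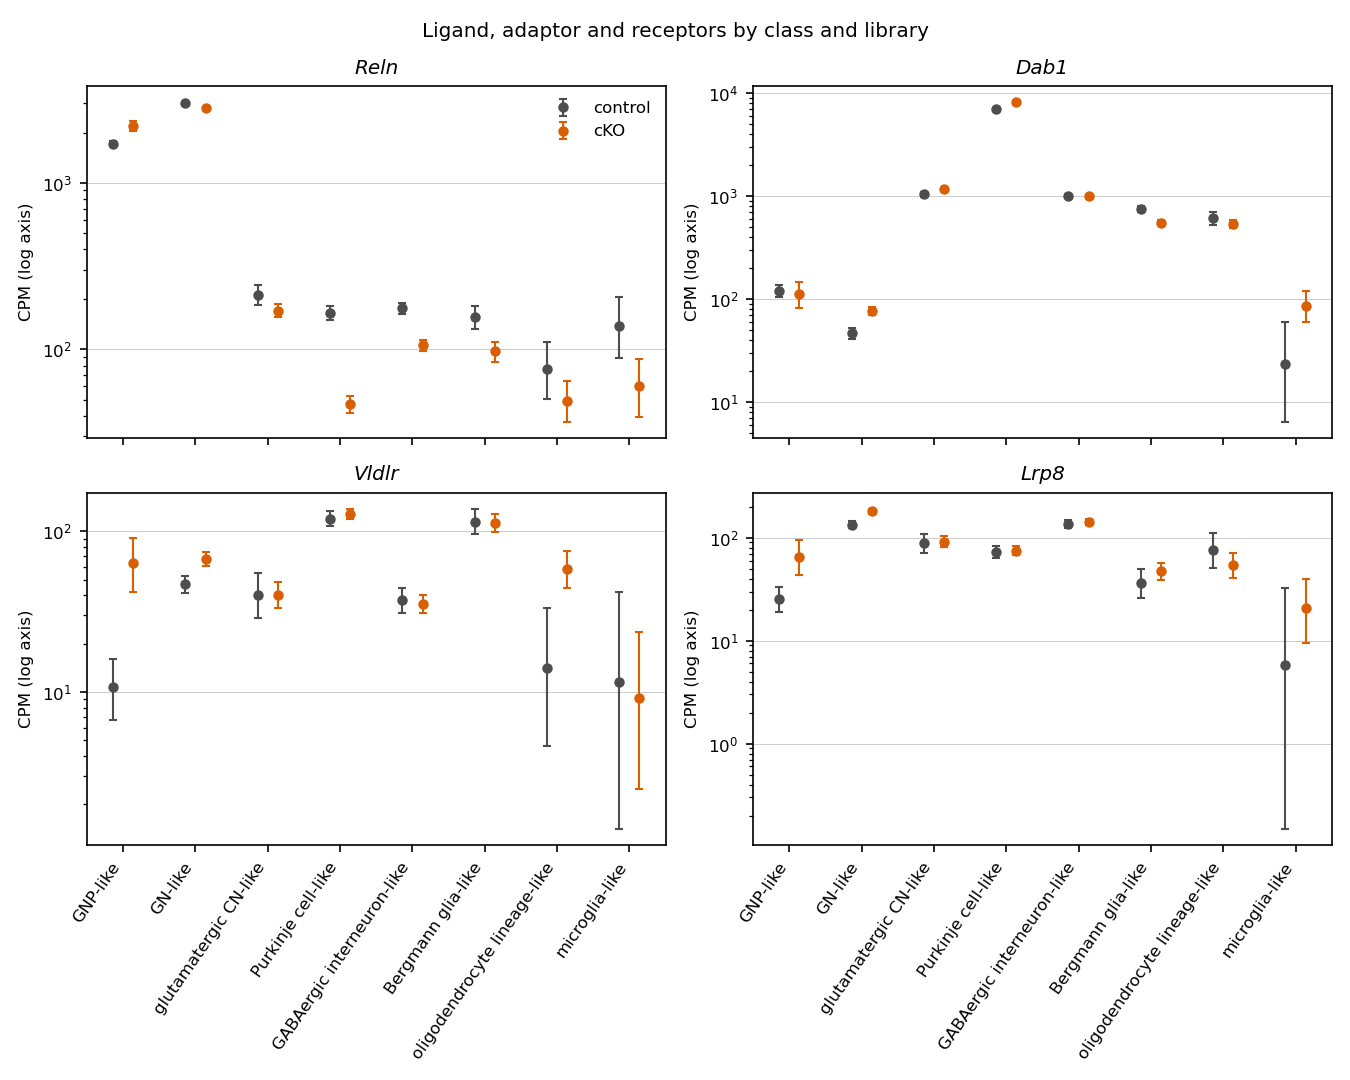
CPM of Reln, Dab1, Vldlr and Lrp8 (log axis) in 8 classes of nuclei, control in grey and the library labelled cKO in orange, with exact 95% Poisson intervals. Reln is highest in GN-like nuclei at 3008 and 2823 CPM, and Dab1 in Purkinje cell-like nuclei at 6965 and 8076 CPM.

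Within the granule lineage Reln peaked in the GN-like clusters 4 and 7. In control, cluster 4 stood at 4351 CPM (4249 to 4455) and cluster 7 at 3718 (3588 to 3852). The dividing GNP-like cluster 14, with Top2a and Mki67 among its leading genes, stood at 1770 (1695 to 1847), and the other GNP-like cluster, 18, at 1642 (1558 to 1730). The third GN-like cluster, 0, led by Slit3 and Svep1, stood at 2173 (2123 to 2225), and the unnamed cluster 2 at 1753 (1693 to 1814). The level of cluster 4 was thus 2.46 (2.34 to 2.58) times that of cluster 14 and 2.0 (1.94 to 2.07) times that of cluster 0. The cKO-labelled nuclei gave the same order at the top, with 4325 CPM (4224 to 4428) in cluster 4 and 3709 (3564 to 3859) in cluster 7, and the cKO to control ratios of these clusters were 0.994 (0.961 to 1.03) and 0.998 (0.946 to 1.05).

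Away from that peak the libraries differed beyond counting error. In the GNP-like clusters Reln was higher in cKO-labelled nuclei, at 2185 CPM (2024 to 2356) in cluster 14 and 2205 (1959 to 2472) in cluster 18, which gives ratios of 1.23 (1.13 to 1.35) and 1.34 (1.18 to 1.52). In clusters 0 and 2 it was lower, with ratios of 0.933 (0.903 to 0.964) and 0.907 (0.864 to 0.951). Over all GNP-like nuclei the ratio was 1.28 (1.19 to 1.37), and over all GN-like nuclei 0.939 (0.919 to 0.959). The fold of GN-like over GNP-like nuclei was 1.75 (1.69 to 1.82) in control and 1.29 (1.21 to 1.38) in the library labelled cKO. These directions depended on how classes were drawn, since a gate on marker UMIs in place of clusters gave 0.984 (0.933 to 1.04) for GNP-like nuclei, and keeping doublets gave 1.02 (0.991 to 1.05) for GN-like nuclei.

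The GNP-like nuclei of the libraries also differed in some progenitor markers, in both directions. Barhl1 stood at 133 CPM in control and 6.78 in cKO-labelled nuclei, and Boc at 637 and 237. Ptch1 (544 and 847), Sfrp1 (141 and 201) and Hhip (3.39 and 18.1) were higher in cKO-labelled nuclei. Gli2 (659 and 642) and Gli1 (60.6 and 74.5) did not differ beyond counting error, and neither did Atoh1, with 16 UMIs against 0. The 8 GNP markers summed to 2185 and 2026 CPM in these nuclei and the 8 GN markers to 1445 and 1938. The 6 Bergmann glia markers summed to 451 and 612, and of these only Gdf10 (9.21 and 102) and Ptprz1 (45.1 and 81.3) differed beyond counting error. The 6 parenchymal astrocyte markers summed to 297 and 547, and of these only Slc1a2 (276 and 529) did. Agt and Gfap were at 0 in the cKO-labelled nuclei. The part of these differences in the member levels of GNP-like nuclei was not tested.

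**Figure D2:**
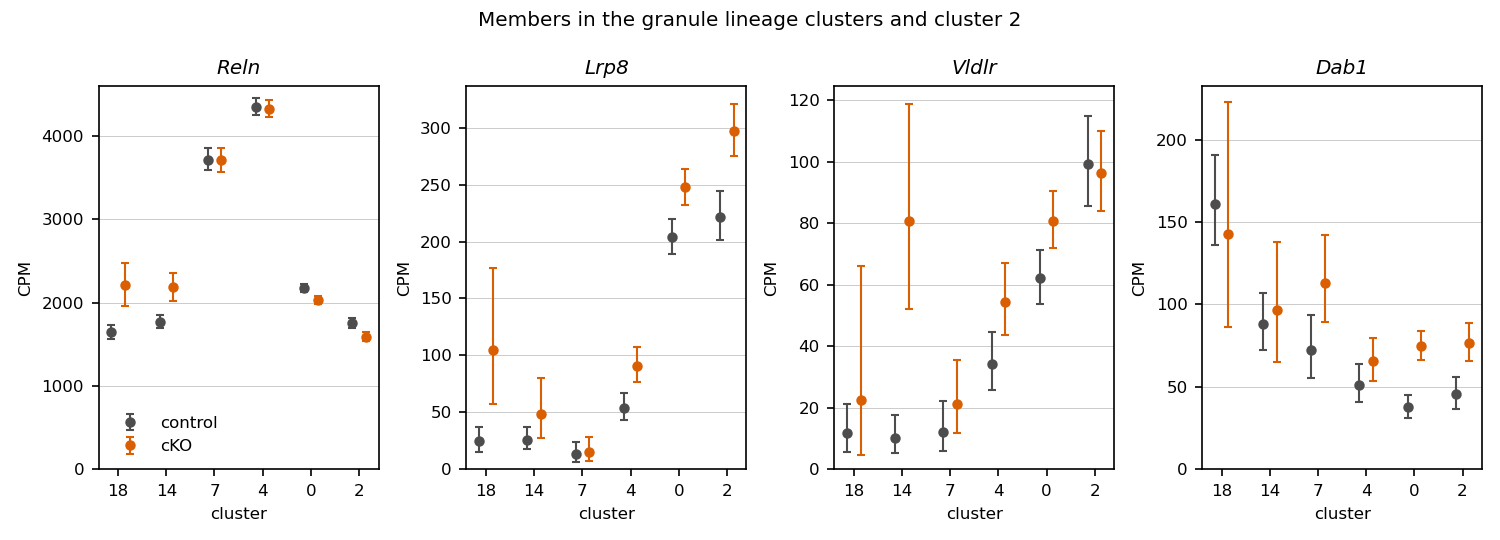
CPM of Reln, Lrp8, Vldlr and Dab1 in the GNP-like clusters 18 and 14, the GN-like clusters 7, 4 and 0, and the unnamed cluster 2, with exact 95% Poisson intervals, control in grey and the library labelled cKO in orange. Reln peaks in cluster 4 at 4351 and 4325 CPM, while Lrp8 is highest in cluster 2 at 222 and 297 CPM.

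For the granule lineage as a whole, Reln stood at 2663 CPM (2626 to 2699) in control and 2779 (2739 to 2820) in cKO-labelled nuclei, a ratio of 1.04 (1.02 to 1.07). The direction turned with the gate on marker UMIs, which gave 0.977 (0.958 to 0.997), and with cluster 2 counted as GN-like, which gave 0.994 (0.976 to 1.01). With doublets kept, which left 600 and 630 nuclei named GN-like, it was 1.29 (1.26 to 1.32).

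Over the whole library the ligand was lower. Reln had 26423 UMIs in control, or 1289 CPM (1274 to 1305), and 24351 in cKO-labelled nuclei, or 807 CPM (797 to 817), with a ratio of 0.626 (0.615 to 0.637). The granule lineage held 77.8% of Reln UMIs in control and 73.8% of those in the other library, and 90.1% and 88.4% together with cluster 2. The granule lineage with cluster 2 made up 46.7% of all UMIs in control against 28.9% in the library labelled cKO. With its class levels weighted by the UMI shares of control, the library labelled cKO came to 1234 CPM, or 0.957 of control. Fewer nuclei of a class and less RNA per nucleus cannot be told apart in the whole-library values alone. By class, the granule lineage made up 35.0% of control and 23.4% of cKO-labelled nuclei, at median depths of 4346 and 3933 UMIs. The part of each in the whole-library ratio was not tested. GNP-like nuclei held 13.4% of Reln UMIs in control against 3.98% in the library labelled cKO.

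Dab1, the adaptor, marked the receiving side. Every Purkinje cell-like nucleus held a Dab1 UMI, 292 of 292 in control and 719 of 719 cKO-labelled, with medians of 66 and 62 Dab1 UMIs per nucleus. These nuclei held 75.6% and 78.7% of Dab1 UMIs, while making up 14.4% and 19.9% of all UMIs. Dab1 stood at 6965 CPM (6870 to 7061) in control and 8076 (8004 to 8148) in cKO-labelled Purkinje cell-like nuclei, a ratio of 1.16 (1.14 to 1.18). Both Purkinje cell-like clusters had a ratio above 1, at 1.18 (1.15 to 1.21) in cluster 6 and 1.13 (1.10 to 1.15) in cluster 9, which has Ebf2 among its leading genes. The 8 Purkinje cell markers summed to 6345 and 6981 CPM in these nuclei, and the part of this in the Dab1 ratio was not tested.

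Other neurons carried Dab1 at lower levels. In control, glutamatergic CN-like and GABAergic interneuron-like nuclei stood at 1035 CPM (973 to 1101) and 1005 (971 to 1039), which did not differ beyond counting error, and cKO-labelled nuclei of these classes stood at 1159 (1120 to 1200) and 997 (973 to 1021). Purkinje cell-like nuclei were 6.93 (6.68 to 7.19) times higher than GABAergic interneuron-like nuclei in control and 8.10 (7.90 to 8.31) times higher in the library labelled cKO. The interneuron-like clusters were uneven, with 1966 and 1772 CPM in cluster 15, 1517 and 1742 in cluster 8, and 244 and 275 in cluster 11. In cluster 12, led by Nxph1 and Pax2, Dab1 stood at 608 CPM (549 to 671) in control and 259 (232 to 289) in cKO-labelled nuclei, but 5 nuclei held 53.4% of the control UMIs and 5 held 41.7% of the others. The 8 Purkinje cell markers summed to 312 and 176 CPM in cluster 12, but they did not move together. Itpr1 (157 and 40.5), Calb1 (37.6 and 16.7) and Bcl11a (31.3 and 15.9) were lower in cKO-labelled nuclei. Foxp2 (40.7 and 43.7) and Lhx5 (40.7 and 51.7) did not differ beyond counting error. The part of these markers in the Dab1 difference was not tested.

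Glia carried Dab1 as well. Bergmann glia-like nuclei stood at 752 CPM (701 to 806) in control and 550.4 (519.6 to 583) in cKO-labelled nuclei, with a ratio of 0.732 (0.669 to 0.802), with a UMI in 88.3% and 78.7% of nuclei. Oligodendrocyte lineage-like nuclei stood at 604 CPM (525 to 691) and 532 (488 to 579). In GN-like nuclei Dab1 was low, at 46.5 CPM (41.0 to 52.5) in control and 76.4 (69.6 to 83.7) in cKO-labelled nuclei, a ratio of 1.64 (1.41 to 1.92). Microglia-like nuclei, taken again as background, had 4 Dab1 UMIs or 23.2 CPM (6.31 to 59.3) in control and 37 or 85.3 CPM (60.1 to 118) in cKO-labelled nuclei, with a ratio of 3.69 (1.32 to 14.2). GN-like and microglia-like Dab1 levels did not differ beyond counting error in either library, so the GN-like level is not read as expression. GNP-like nuclei stood at 119 CPM (104 to 135) in control and 111 (81.9 to 146) in cKO-labelled nuclei, a ratio of 0.932 (0.671 to 1.27). Their interval lay above the microglia-like one in control and overlapped it in the library labelled cKO. The microglia-like ratio was 1.00 with the gate on marker UMIs.

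Over the whole library Dab1 stood at 1324 CPM (1308 to 1340) in control and 2048 (2032 to 2064) in cKO-labelled nuclei, with a ratio of 1.55 (1.53 to 1.57). At the control UMI shares of the classes it came to 1492 CPM, a ratio of 1.13. The whole-library ratios of ligand and adaptor thus lay on opposite sides of 1, and both were nearer to 1 at the control makeup.

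**Figure D3:**
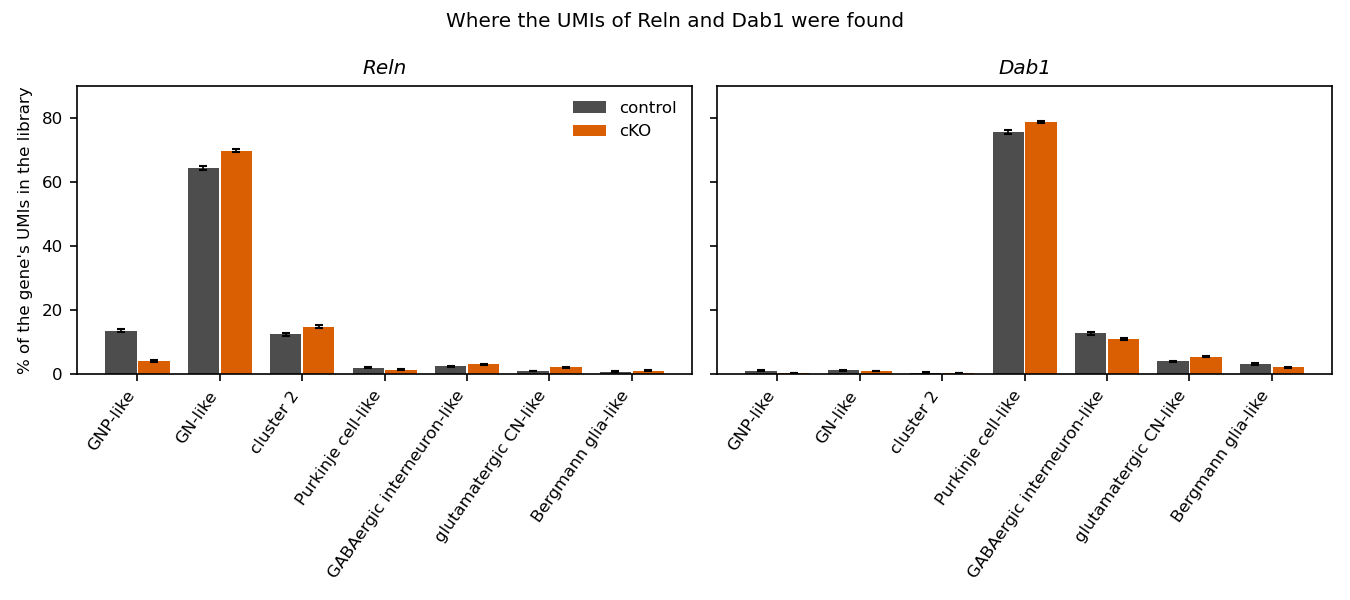
Share of all Reln UMIs and all Dab1 UMIs of a library that each class held (bars from 0, exact 95% binomial intervals), control in grey and the library labelled cKO in orange. GN-like nuclei hold 64.4% and 69.8% of Reln UMIs and Purkinje cell-like nuclei hold 75.6% and 78.7% of Dab1 UMIs.

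The receptors did not share one pattern. Of the 8 classes, Vldlr was highest in Purkinje cell-like nuclei, at 119.9 CPM (108 to 133) in control against 128 (119 to 137) in the library labelled cKO. Bergmann glia-like nuclei did not differ from them beyond counting error, at 115 (96.0 to 138) and 113 (99.7 to 129). The unnamed cluster 10 stood above both, at 182 CPM (146 to 225) and 155 (132 to 180.4). Lrp8 stood at 134 CPM (125 to 144) and 180.4 (169.8 to 191) in GN-like nuclei and at 137 (125 to 150.3) and 142 (133 to 151) in GABAergic interneuron-like nuclei, which did not differ beyond counting error in control. In Purkinje cell-like nuclei Lrp8 stood at 73.4 (63.9 to 83.9) and 75.1 (68.4 to 82.4). In Purkinje cell-like nuclei the cKO to control ratio was 1.07 (0.939 to 1.21) for Vldlr and 1.02 (0.868 to 1.21) for Lrp8, and both intervals hold 1. At an equal depth of 1000 UMIs per nucleus, as a mean over all thinnings, the ratios were 1.02 and 1.04. The Purkinje cell-like clusters were split for Vldlr, with ratios of 1.20 (1.02 to 1.41) in cluster 6 and 0.910 (0.739 to 1.13) in cluster 9. For Lrp8 both intervals held 1, at 0.989 (0.793 to 1.24) and 1.05 (0.823 to 1.36).

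Most Purkinje cell-like nuclei held the adaptor together with a receptor. A Dab1 UMI and a UMI of Vldlr or Lrp8 stood in 77.7% of control nuclei (72.5 to 82.4) and 75.2% of those labelled cKO (71.9 to 78.4). Vldlr was seen in 61.0% and 60.2% and Lrp8 in 44.9% and 43.0%, at median depths of 9282.5 and 7956 UMIs. In microglia-like nuclei, at lower depth, Vldlr was seen in 3.77% and 2.65% and Lrp8 in 1.89% and 5.96%. After thinning to 1000 UMIs the Purkinje cell-like shares were 11.4% and 11.7% for Vldlr and 6.68% and 6.97% for Lrp8. The thinned microglia-like shares were 1.35% and 0.683% for Vldlr and 0.512% and 2.02% for Lrp8.

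Among GN-like clusters both receptors were highest where the ligand was lowest. In control, Lrp8 stood at 13.3 CPM (6.63 to 23.8) in cluster 7, 53.8 (43.0 to 66.5) in cluster 4 and 204 (189 to 220.2) in cluster 0, and at 222 (201 to 244) in cluster 2. Vldlr stood at 12.1 CPM (5.79 to 22.2), 34.2 (25.7 to 44.6), 62.2 (53.9 to 71.4) and 99.3 (85.5 to 115) in the same clusters. Cluster 0 was thus 15.4 (8.53 to 30.9) times cluster 7 for Lrp8 and 5.15 (2.74 to 10.9) times for Vldlr. The Vldlr level of cluster 7 is of the size of the microglia-like one, so that fold is not well set. In the library labelled cKO the same folds were 16.4 (8.88 to 34.3) and 3.83 (2.25 to 7.08).

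Both receptors were higher in cKO-labelled nuclei of the granule lineage. Vldlr stood at 37.3 CPM (33.1 to 41.9) in control and 67.0 (60.8 to 73.6) in cKO-labelled nuclei, with a ratio of 1.80 (1.54 to 2.09). Lrp8 stood at 105 CPM (97.9 to 113) and 173 (163 to 183), a ratio of 1.64 (1.5 to 1.80). GNP-like nuclei, where both were low in control, made up fewer of the cKO-labelled nuclei, and within GN-like nuclei the ratios were 1.43 (1.22 to 1.68) for Vldlr and 1.34 (1.22 to 1.48) for Lrp8. Within cluster 4 they were 1.59 (1.12 to 2.28) and 1.69 (1.28 to 2.23), and within cluster 0 1.30 (1.09 to 1.56) and 1.21 (1.10 to 1.34). Within cluster 7, where UMIs were few, both intervals held 1, at 1.75 (0.723 to 4.40) for Vldlr and 1.14 (0.433 to 2.95) for Lrp8. In the unnamed cluster 2 the Vldlr ratio was 0.971 (0.794 to 1.19) and the Lrp8 ratio 1.34 (1.18 to 1.52). In GN-like nuclei the 8 Purkinje cell markers summed to 106 and 148 CPM and the 6 Bergmann glia markers to 317 and 424, and the part of these in the receptor ratios was not tested.

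The highest receptor ratio was that of Vldlr in GNP-like nuclei and rests on few UMIs. Vldlr had 22 UMIs in control, or 10.7 CPM (6.68 to 16.1), and 28 in the library labelled cKO, or 63.3 CPM (42 to 91.4), a ratio of 5.93 (3.27 to 10.9). These UMIs stood in 19 of 518 and 19 of 121 nuclei, and 25 of the 28 were in cluster 14. The control level is no higher than that of microglia-like nuclei, 11.6 CPM (1.40 to 41.8), so the size of this fold is not well set. In 1 random thinning to 1000 UMIs per nucleus the ratio was 2.40 (0.631 to 7.97), as a mean over all thinnings it was 4.83, and with the gate on marker UMIs it was 4.17 (3.07 to 5.71). Lrp8 had 52 and 29 UMIs in GNP-like nuclei, or 25.2 CPM (18.8 to 33.1) and 65.5 (43.9 to 94.1), a ratio of 2.60 (1.59 to 4.17), which was 2.83 as a mean over all thinnings. Vldlr was also higher in cKO-labelled oligodendrocyte lineage-like nuclei, with 5 UMIs or 14.2 CPM (4.60 to 33.1) in control and 58 or 58.2 CPM (44.2 to 75.3) in the library labelled cKO.

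**Figure D4:**
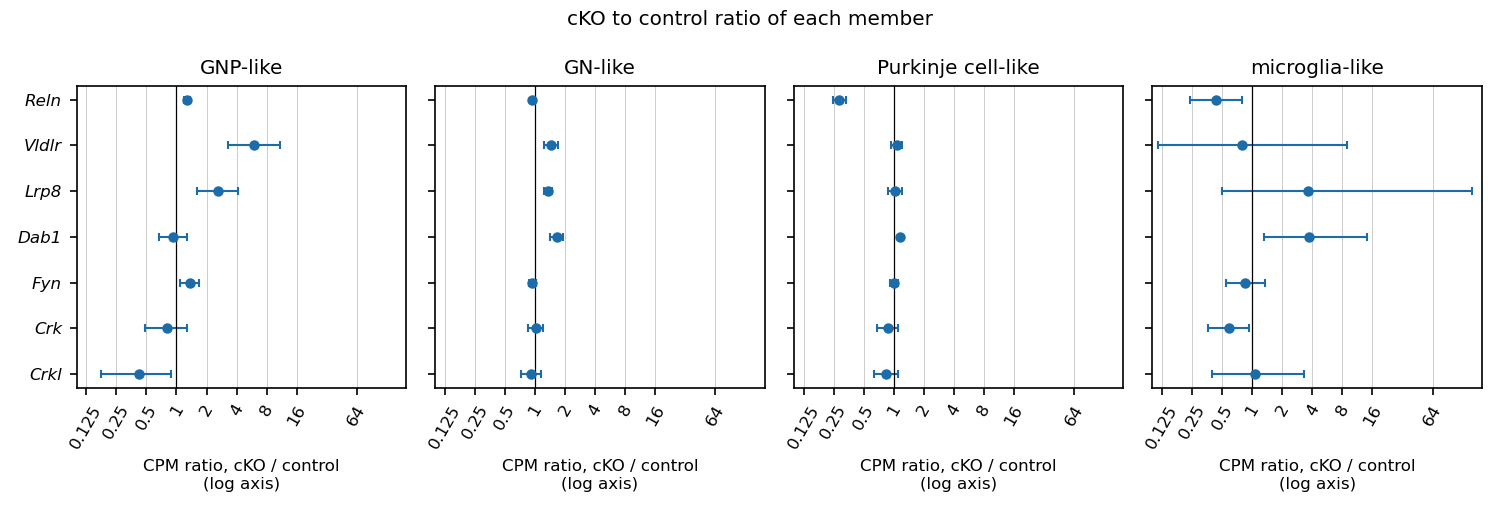
CPM ratio of the library labelled cKO to control for the 7 members (log axis, exact 95% conditional binomial intervals) in GNP-like, GN-like, Purkinje cell-like and microglia-like nuclei. In Purkinje cell-like nuclei all but Reln (0.284) and Dab1 (1.16) have intervals that hold 1, and in GNP-like nuclei Vldlr lies at 5.93.

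Fyn, a Src family kinase that phosphorylates DAB1, was highest in the oligodendrocyte lineage, where it also acts in myelination. It stood at 268 CPM (249 to 287) in control Purkinje cell-like nuclei and 271 (258 to 285) in cKO-labelled ones, a ratio of 1.01 (0.929 to 1.10). In GN-like nuclei it stood at 219 (207 to 231) and 205 (194 to 217), with a ratio of 0.939 (0.867 to 1.02). In GNP-like nuclei it stood at 172 (154 to 190.4) and 233 (189.9 to 282), a ratio of 1.36 (1.08 to 1.69). In oligodendrocyte lineage-like nuclei it stood at 459 (391 to 536) and 759.8 (707 to 816), a ratio of 1.65 (1.39 to 1.97). The 7 oligodendrocyte lineage markers summed to 1896 and 2289 CPM in those nuclei, and the part of this in the Fyn ratio was not tested.

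Crk and Crkl encode adaptors that bind phosphorylated DAB1. Crk was highest in microglia-like nuclei, at 191 CPM (131 to 268) in control against 111 (81.6 to 147) in the library labelled cKO, and between 30.1 and 62.1 CPM in the other classes of control. In Purkinje cell-like nuclei Crk stood at 38.1 (31.3 to 45.8) and 33.1 (28.6 to 38) and Crkl at 28.5 (22.8 to 35.3) and 23.9 (20.2 to 28.2), with ratios of 0.869 (0.686 to 1.11) and 0.838 (0.636 to 1.11). In GNP-like nuclei Crkl had 88 UMIs in control, or 42.7 CPM (34.2 to 52.6), and 8 in the library labelled cKO, or 18.1 CPM (7.80 to 35.6), a ratio of 0.424 (0.177 to 0.872). With the gate on marker UMIs the Crkl ratio there was 0.836 (0.551 to 1.24). Crkl was also lower in Bergmann glia-like nuclei, with a ratio of 0.589 (0.381 to 0.915), and its interval held 1 in the other 6 classes. For the granule lineage as a whole the Crkl ratio was 0.784 (0.639 to 0.959). Over the whole library it was 0.799 (0.717 to 0.892), and 0.754 at the control UMI shares of the classes.

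Reln in Purkinje cell-like nuclei had the lowest ratio of any member in any of the 8 classes, at 0.284 (0.245 to 0.330). It stood at 165 CPM (151 to 181) in control and 47.0 (41.7 to 52.8) in cKO-labelled nuclei. Both intervals overlap those of microglia-like nuclei, so the Purkinje cell-like Reln level is not read as expression. In control 5 nuclei held 31.2% of the 487 UMIs, and in the library labelled cKO 5 held 27.9% of the 283. Counting error does not cover that spread. Reln was lower beyond counting error in 6 of 8 classes, microglia-like nuclei among them with a ratio of 0.432 (0.238 to 0.785), which was 1.11 (0.698 to 1.83) without doublet removal. The 8 GN markers summed to 217 and 115 CPM in Purkinje cell-like nuclei and to 318 and 99.2 in microglia-like nuclei. The part of granule RNA in the Reln ratios outside the granule lineage was not tested.

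Counts of members are read against all genes. A gene was counted as higher or lower where it differed by at least 1.5-fold with an interval outside 1, among genes that had at least 20 UMIs in all. In the whole library 1 of 7 members was higher (Dab1), where 4.58% of 20214 genes were, and 1 was lower (Reln), where 5.57% were. In the granule lineage 2 of 7 were higher (Vldlr and Lrp8), where 3.67% of 15656 genes were, and 0 were lower, where 10.6% were. In GNP-like nuclei 2 were higher (Vldlr and Lrp8), where 6.16% of 11193 genes were, and 1 was lower (Crkl), where 7.75% were. In Purkinje cell-like nuclei 0 were higher, where 1.44% of 14678 genes were, and 1 was lower (Reln, at a level not read as expression), where 4.08% were. The median log2 ratio of the 7 members was 0.15, 0.06, 0.35 and 0.02 in these 4 comparisons, beside -0.02, -0.09, -0.07 and -0.03 over all genes counted.

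Most of the 37 other genes of the pathway were not counted as higher or lower, which also held for most of all genes. The share over all genes is given in parentheses. In the whole library 3 of 37 were higher (4.58%) and 1 was lower (5.57%). In the granule lineage 1 of the 36 counted was higher (3.67%) and 1 was lower (10.6%). In Purkinje cell-like nuclei 3 of the 36 counted were higher (1.44%) and 1 was lower (4.08%). In GNP-like nuclei 1 of the 29 counted was higher (Limk1, 6.16%) and 2 were lower (Rap1a and Cfl1, 7.75%), genes named after their values were seen. The median log2 ratio of the further pathway genes was 0.01, -0.06, 0.1 and 0.02 in the whole library, the granule lineage, GNP-like and Purkinje cell-like nuclei. Over all genes counted it was -0.02, -0.09, -0.07 and -0.03.

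Adamts3, a protease that cuts Reelin, was highest in Purkinje cell-like nuclei, at 199 CPM in control and 287 in cKO-labelled nuclei, with a ratio of 1.44 (1.31 to 1.59). It stood at 4.92 CPM in the control granule lineage. Adamts2, a related protease, had 18 and 74 UMIs in Purkinje cell-like nuclei, a ratio of 2.01 (1.19 to 3.58). Over the whole library Adamts3 had a ratio of 1.63 (1.52 to 1.75), Adamts2 of 1.5 (1.30 to 1.73) and Plat, tissue plasminogen activator, of 1.41 (1.26 to 1.59), while Plat in Purkinje cell-like nuclei had a ratio of 0.698 (0.497 to 0.984).

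Among other ligands and turnover genes, Apoe, a lipid carrier that binds the same receptors, had a whole-library ratio of 2.15 (2.07 to 2.23). It was highest in microglia-like nuclei, a class that made up 1.14% of control and 2.30% of cKO-labelled nuclei. For Apoe the granule lineage gave 1.71 (1.5 to 1.96) and Purkinje cell-like nuclei gave 1.56 (1.23 to 1.99), where the level was 31.6 and 49.2 CPM. Selenop, which encodes a selenium carrier taken up through ApoER2, had a whole-library ratio of 1.58 (1.35 to 1.86).

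Further down the route, ratios in the granule lineage were 0.733 (0.664 to 0.810) for Nck2, an adaptor that binds phosphorylated DAB1, 0.681 (0.526 to 0.877) for the kinase gene Akt1, 0.731 (0.536 to 0.991) for Cdk5 and 0.689 (0.474 to 0.990) for Mylip, a ligase for these receptors. On the other side of 1 stood Lrp1 at 1.32 (1.17 to 1.48), Nck1 at 1.24 (1.13 to 1.36), Cdk5r1 at 1.23 (1.03 to 1.46) and Mapt, the microtubule protein tau, at 1.17 (1.11 to 1.23). In Purkinje cell-like nuclei the CDK5 activators stood at 2.93 (1.22 to 8.52) for Cdk5r2, from 6 and 36 UMIs, and 1.34 (1.05 to 1.71) for Cdk5r1, while Nck2 stood at 0.777 (0.657 to 0.921). Over the whole library Cfl1, which encodes the actin-severing protein cofilin, stood at 0.725 (0.674 to 0.780), Nck2 at 0.735 (0.692 to 0.781) and Pik3ca at 0.887 (0.833 to 0.945).

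Genes whose levels ran most like those of Reln and Dab1 were sought over 16 points, 8 classes in each of 2 libraries, among 13640 genes. The points share libraries and depth, so the coefficients are a description. Nearest to Reln by Pearson correlation of log2(CPM + 5) were Gm10475 at 0.984, Tnfaip8l3 at 0.961, Gm11750 at 0.937, Gm16169 at 0.933 and Gm16110 at 0.932. Nearest to Dab1 were Gm35835 at 0.949, 1700016K05Rik at 0.941, Adamts3 at 0.938, Gm47471 at 0.937 and Grm7 at 0.936.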

How the data were processed

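The deposited values are raw UMI counts per gene and nucleus, which the authors made with bcl2fastq and Cell Ranger 7.0.1 on mm10 (GRCm38) from 10x Genomics 3' libraries. Whether intronic reads were counted is not given in the sources used here, and the authors' correction for free RNA was not applied here. The total count was 22325208 UMIs for control and 33726533 for the library labelled cKO.

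Nuclei with over 25% mitochondrial UMIs were removed, as were the top 0.8% per 1000 barcodes by Scrublet score (scanpy 1.11.5), 189 and 386 nuclei. Nuclei were log-normalised and integrated by canonical correlation in Seurat 5.3.0 (R 4.3.3, 3000 variable features, 30 dimensions) and clustered on 20 dimensions at resolution 0.8. A cluster was named where at least 3 markers of a class were seen in 10% of nuclei at 2 times the median of the other clusters, and stayed unnamed where its leading genes belonged to another class or its depth was under that of its library divided by 3.

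UMIs were summed per class and library with numpy 2.4.6 and scipy 1.17.1 and divided by all UMIs of the class. Intervals at 95% were Poisson for a level, conditional binomial for a ratio and Clopper-Pearson for a share. Nuclei are not replicates, so no p-value was computed. Shares and mean ratios after thinning are the mean over all thinnings of each nucleus to 1000 UMIs. The ratio code was tested on simulated counts.

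The members, the 37 further pathway genes and the markers were chosen with earlier results of these data known. All 7 members are named, with the 5 highest and 5 lowest ratios of the further genes in the whole library, the granule lineage and Purkinje cell-like nuclei among those with an interval outside 1, and the 5 genes most like Reln and Dab1. Alternatives changed the scaling, doublets, depth, Xist, resolution, integration, class rule, features, fold and UMI minimum. Start regions for all 7 members came from RefSeq (GRCm38.p6) and gene positions from GENCODE M21. Protein sequences were not used here. Results for 1 class of nuclei and for some pathway genes are not reported here.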

Additional observations from a re-analysis of the deposited data

Results flagged for a closer look

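The cKO to control ratio of Reln lay on opposite sides of 1 in different classes, each with an interval outside 1, and that difference between classes was not tested. It was above 1 in GNP-like nuclei (1.28). It was below 1 in GN-like (0.939), glutamatergic CN-like (0.803), GABAergic interneuron-like (0.604), Bergmann glia-like (0.624), microglia-like (0.432) and Purkinje cell-like nuclei (0.284).

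The ratio of Dab1 also lay on opposite sides of 1, and that difference was not tested either. It was above 1 in GN-like (1.64), glutamatergic CN-like (1.12), Purkinje cell-like (1.16) and microglia-like nuclei (3.69), and below 1 in Bergmann glia-like nuclei (0.732).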

How the results depend on the processing

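The main values were 7 whole-library ratios, the Reln ratio of the granule lineage and 3 Purkinje cell-like ratios. Beside those of Reln and Dab1, the whole-library ratios were 1.23 (1.15 to 1.32) for Vldlr and 1.13 (1.08 to 1.19) for Lrp8. They were 1.11 (1.07 to 1.15) for Fyn, 0.935 (0.858 to 1.02) for Crk and 0.799 (0.717 to 0.892) for Crkl. Of the 86 alternatives for the main values 64 stayed within the counting interval, 20 moved out of it and 2 changed sides of 1. Of 627 alternatives for 59 further ratios, 557 stayed, 63 moved and 7 changed sides. Except where stated, the cause was not tested. The granule lineage Reln ratio changed sides with the gate on marker UMIs (0.977) and with cluster 2 counted as GN-like (0.994), an alternative chosen after seeing the data. The gate also turned Reln in GNP-like nuclei (0.984). Without doublet removal, Dab1 in the granule lineage (0.972) and Reln in GN-like (1.02) and microglia-like nuclei (1.11) turned, and granule lineage Reln moved to 1.29. Subtracting the microglia-like level, also chosen after seeing the data, gave 1.5, 1.26 and 2.20 for Reln in glutamatergic CN-like, GABAergic interneuron-like and Bergmann glia-like nuclei, but the intervals of their control levels overlap that of microglia-like nuclei, so these carry no direction, and it moved Purkinje cell-like Lrp8 to 0.804. Median-of-ratios scaling gave 0.638 for Reln and 1.58 for Dab1 in the whole library, 1.10 for granule lineage Reln and 1.19 for Purkinje cell-like Dab1. A random thinning to 1000 UMIs per nucleus, drawn once, gave whole-library 0.667 for Reln, 1.31 for Lrp8, 1.65 for Dab1 and 0.847 for Crk, 1.09 for granule lineage Reln and 1.95 for Purkinje cell-like Lrp8, the last from 10 and 48 UMIs. The mean over all thinnings, chosen after seeing the data, gave 0.658, 1.20, 1.63 and 0.957 for the same whole-library ratios, 1.07 for granule lineage Reln, 1.04 for Purkinje cell-like Lrp8 and 1.13 for Purkinje cell-like Dab1. Nuclei with an Xist UMI gave whole-library 0.607 for Reln and 1.52 for Dab1, and 1.20 for Purkinje cell-like Dab1. At the lower fold threshold tried, the further pathway genes counted as higher and lower were 6 and 4 of 37 in the whole library (9.52% and 10.6% of all genes), 2 and 8 of 36 in the granule lineage (7.29% and 16.9%), and 5 and 3 of 36 in Purkinje cell-like nuclei (2.81% and 6.53%). With at least 100 UMIs the last pair was 1 and 0 of 29 (0.884% and 2.75%). Low depth limits Vldlr, Lrp8 and Crkl in GNP-like nuclei and every member in microglia-like nuclei. No paired analysis was possible because each group is 1 library, and for the same reason no library could be left out.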
